A study of Mus musculus with 9 samples.

Results

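The 10 genes described here make, load or switch on MHC class II molecules, and 13 of the 55681 probes on the array read them. They are the chain genes H2-Aa, H2-Ab1 and H2-Eb1, the invariant chain gene Cd74, the peptide-loading genes H2-DMa, H2-DMb1 and H2-DMb2, their inhibitors H2-Oa and H2-Ob, and the transactivator gene Ciita. A probe was taken when its gene name, or the current RefSeq name of its accession, was one of the 10. The group was chosen by the knockout against wild-type difference of H2-Eb1 and Cd74 on these same arrays, so the knockout against wild-type values of the members are a description without a test. A probe counted as measured if 4 or more of the 9 arrays had it well above background, and 9 probes of 8 genes met this. H2-DMb2, Ciita and 2 of the 3 H2-Ob probes were not well above background on any of the arrays.

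Class II molecules are pairs of an alpha and a beta chain that show peptides from endosomes to CD4+ T cells. The invariant chain fills their groove and guides them to the endosome, where H2-DM exchanges its last fragment for a peptide and H2-DO restrains H2-DM. Dendritic cells, macrophages and B cells are the usual carriers, epithelia can gain class II under interferon gamma, and CIITA, held at the promoters by factors bound to the X and Y boxes, switches the whole set on.

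Stomachs of newborn mice were compared, 5 from mice with a knockout of C/EBPβ (KO 1 to KO 5), a leucine zipper transcription factor, and 4 wild-type stomachs (WT 1 to WT 4), with 1 Agilent 1-colour array for each mouse. The labels give no further allele, no strain, no MHC haplotype and no sex, and they do not say which part of the targeted gene was removed. They place the mice at birth, although their source field calls them old. The level of a gene is log2 of its processed signal minus log2 of the array's 75th percentile, so 0 is the brightness of that percentile, and levels of different probes cannot be set against each other. That percentile ran from 221 (WT 4) to 472 (KO 3) signal units, and 50.9% to 57.2% of the spots were well above background. Cebpb, the targeted gene, lay at −2.18 ± 0.60 (SD, n = 5) in the knockout and 3.30 ± 0.30 (SD, n = 4) in wild type, which is 2.24% of the wild-type level, so the arrays carry the genotypes of their labels. All 18 genes listed as stomach markers were measured, Epcam of epithelia at 2.42 ± 0.35 (SD, n = 5) in knockout and 2.04 ± 0.36 (SD, n = 4) in wild type. WT 4 lay apart from the other wild-type arrays for several members, KO 2, KO 4 and KO 5 carried no Y-linked signal, and the arrays came from 4 slides, of which slide 1 held KO 4, KO 5, WT 3 and WT 4 and slide 4 held KO 2, WT 1 and WT 2.

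Class II promoters are known for their X and Y boxes. RefSeq's table (GRCm38.p6) holds the window from 250 bases before to 50 after the start for 7 of the 10 genes, the others being H2-Ab1, Cd74 and Ciita. The stretches that hold both boxes are shown because the same arrangement recurs in genes whose levels differed and in genes without signal, each 5′ to 3′ on the strand of its gene, with the X box pattern CNNNNAAC and the Y box pattern TGATTGG in capitals.
H2-Aa, chr17:34287863-34287911, minus strand: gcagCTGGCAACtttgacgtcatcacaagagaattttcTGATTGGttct
H2-Eb1, chr17:34305769-34305816, plus strand: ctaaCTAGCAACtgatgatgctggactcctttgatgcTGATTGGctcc
H2-DMb1, chr17:34153090-34153138, plus strand: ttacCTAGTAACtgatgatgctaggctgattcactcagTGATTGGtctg
H2-DMb2, chr17:34145119-34145167, plus strand: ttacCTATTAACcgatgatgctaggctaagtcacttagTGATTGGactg
H2-Oa, chr17:34092296-34092344, plus strand: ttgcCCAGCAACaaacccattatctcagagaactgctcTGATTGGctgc
H2-Ob, chr17:34238811-34238856, plus strand: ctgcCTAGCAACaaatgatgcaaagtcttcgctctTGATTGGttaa
In these 6 genes the X box began 31 to 34 bases before the Y box. Both patterns, searched on both strands with 18 to 45 bases between their first bases, were found in 0.67% of the 32851 promoter windows in the table, and the Y box pattern alone in 7.82%. The patterns were written after these sequences had been seen, and a match is a run of letters, not a measured binding site. Neither of the 2 windows of H2-DMa held the pair. H2-DMb1 and H2-DMb2, neighbouring beta chain genes of H2-DM, both hold the pair, and H2-DMb1 was well above background on all 9 arrays and H2-DMb2 on 0.

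**Figure D1:**
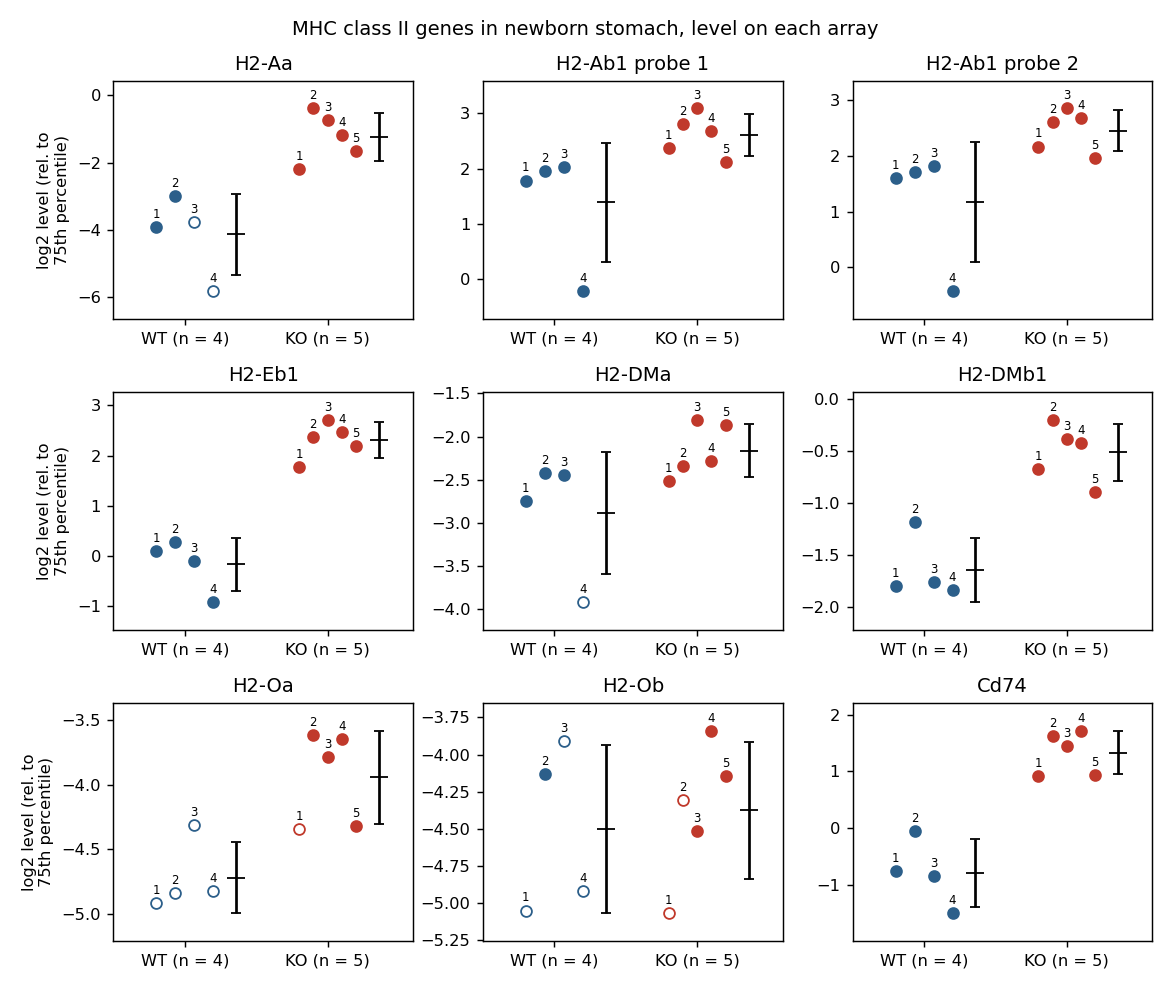
Log2 level relative to the array's 75th percentile for the 9 kept class II probes (H2-Ab1 probe 1 is A_55_P1962747, probe 2 is A_55_P2146560), with wild type in blue (n = 4) and knockout in red (n = 5). The number beside each point is the mouse, open points were not well above background, and bars are the mean ± SD; the groups do not overlap for H2-Aa, both H2-Ab1 probes, H2-Eb1, H2-DMb1 and Cd74.

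H2-Eb1, the beta chain of the I-E molecule, had a processed signal of 997, 1486, 3108, 2540 and 2094 units on KO 1 to KO 5. On WT 1 to WT 4 it was 438.5, 411.8, 278.4 and 115.9 units. Every knockout array was thus above every wild-type array before any scaling, and the lowest wild-type value was that of WT 4. Its levels were 1.77, 2.38, 2.72, 2.48 and 2.19 on the knockout arrays and 0.091, 0.27, −0.098 and −0.93 on the wild-type arrays, a difference of 2.47 ± 0.27 (limma's moderated SE; 5.56-fold). The probe lies at chr17:34453075-34453134 (mm9), at position 1124 of the transcript.

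The partner chain of I-E was not seen. Its gene H2-Ea is known to be silent in mice of the H2-b haplotype and carries the name H2-Ea-ps in the reference, and its probe, at chr17:34481469-34481528 (mm9), is shown because its signal would separate haplotypes.
H2-Ea-ps: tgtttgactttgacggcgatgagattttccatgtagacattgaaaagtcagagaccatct
It was not well above background on any of the 9 arrays, with levels of −6.43 ± 0.38 (SD, n = 5) in knockout and −6.33 ± 0.65 (SD, n = 4) in wild type. H2-Eb2, a relative of H2-Eb1, was no brighter than background on any array either (−6.69 ± 0.40 and −6.77 ± 0.66).

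H2-Ab1, the beta chain of the I-A molecule, was read by 2 probes that overlap by 51 bases and differ at 1 of them, T51C, counted from 1 at the 5′ end of A_55_P1962747 with the other probe's base last. They start at positions 1125 and 1134 of the transcript, at chr17:34406296-34406355 and chr17:34406305-34406363 (mm9), and the second spans 59 bases of the genome with 60 bases of probe. The 30 bases around the difference are shown, with it in capitals, because a difference between alleles at that base could have turned 1 probe against the other.
A_55_P1962747: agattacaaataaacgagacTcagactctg
A_55_P2146560: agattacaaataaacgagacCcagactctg
Both probes gave much the same picture. On A_55_P1962747 the levels were 2.38, 2.80, 3.09, 2.69 and 2.12 for KO 1 to KO 5, against 1.79, 1.97, 2.03 and −0.22 for WT 1 to WT 4. On A_55_P2146560 they were 2.17, 2.60, 2.85, 2.68 and 1.96 and, in wild type, 1.60, 1.71, 1.82 and −0.43. The first probe read 0.19 to 0.26 above the second on the wild-type arrays and 0.15 to 0.24 above it on the knockout arrays other than KO 4, where the gap was 0.0077. The knockout was higher by 1.22 ± 0.44 (SE; 2.34-fold) and 1.28 ± 0.44 (SE; 2.42-fold). The arrays of the genotypes did not overlap, but KO 5 lay only just above WT 3, and WT 4 was far below all others. Without WT 4 the differences were 0.69 and 0.74.

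H2-Aa, the alpha chain of I-A, was read by a probe at position 227 of its transcript, chr17:34421285-34421344 (mm9). The probe is open in 1 reading frame and is shown because it falls in the early part of the message, where alleles of the chain are known to differ most.
H2-Aa: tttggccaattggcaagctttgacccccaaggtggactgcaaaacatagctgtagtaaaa
Its levels were −2.20, −0.39, −0.73, −1.18 and −1.65 for KO 1 to KO 5, against −3.93, −3.00, −3.78 and −5.84 for WT 1 to WT 4. The lowest knockout array, KO 1, was above the highest wild-type array, WT 2, and the difference was 2.91 ± 0.55 (SE; 7.50-fold). The probe was well above background on 5 of 5 knockout but 2 of 4 wild-type arrays, so the size of this difference is uncertain. With a background correction by normexp it was 1.27.

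Cd74, which encodes the invariant chain, lies outside the MHC, on chromosome 18, as does Ciita, on chromosome 16. Its signal was 554, 884, 1292, 1501 and 877 units for KO 1 to KO 5, against 243.6, 331.6, 165.5 and 78.0 units for WT 1 to WT 4. In levels these were 0.92, 1.63, 1.45, 1.72 and 0.94 against −0.76, −0.046, −0.85 and −1.50. The lowest knockout arrays, KO 1 and KO 5, were still above the highest wild-type array, WT 2. The difference was 2.12 ± 0.30 (SE; 4.35-fold), and it ran between 1.88 and 2.37 when single arrays were left out.

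Of the H2-DM chains, which load peptides, H2-DMb1 was higher by 1.13 ± 0.20 (SE; 2.20-fold). Its levels were −0.67, −0.19, −0.38, −0.42 and −0.90 in the knockout and −1.80, −1.18, −1.76 and −1.85 in wild type, without overlap. H2-DMa, the alpha chain, lay at −2.51, −2.34, −1.80, −2.29 and −1.87 in the knockout and at −2.74, −2.42, −2.45 and −3.92 in wild type. KO 1 lay below WT 2 and WT 3, so its groups overlapped, and its difference of 0.72 ± 0.32 (SE) became 0.37 without WT 4. Separation of the genotypes was thus seen for the beta chain and not for the alpha chain of H2-DM. H2-DMb2 stayed at −6.66 ± 0.37 (SD, n = 5) and −6.60 ± 0.65 (SD, n = 4), not well above background anywhere.

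The H2-DO chains, which hold H2-DM back and are known from B cells and thymus, were close to background. H2-Oa lay at −4.34, −3.62, −3.79, −3.65 and −4.32 in the knockout and at −4.91, −4.84, −4.31 and −4.82 in wild type. It was well above background on 4 of 5 knockout arrays and on 0 of 4 wild-type arrays, so it was kept only through the knockout, and WT 3 lay above KO 1 and KO 5. The knockout mean of H2-Oa was at least 1.37-fold higher on the scale used here. It was set against each wild-type array's lowest signal well above background or, if higher, the probe's own signal. KO 1, not well above background, is in that mean. With normexp, which adds an offset to every signal, the difference was 0.17 (log2), below the 1.37-fold bound. The 1 kept H2-Ob probe showed no separation, with levels from −5.07 (KO 1) to −3.84 (KO 4) in the knockout and from −5.05 (WT 1) to −3.91 (WT 3) in wild type. Its difference was 0.13 ± 0.31 (SE), and the sign turned in some subsets of the arrays, for example −0.29 over the arrays with Y-linked signal.

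Ciita, the transactivator that the other members depend on, gave no usable level. The signal of its 1 probe was not well above background on any of the 9 arrays, at −6.58 ± 0.39 (SD, n = 5) in knockout and −6.21 ± 0.63 (SD, n = 4) in wild type, so a difference in Ciita was not detectable with this probe.

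All 8 member genes with a kept probe were higher in the knockout, with a median difference of 1.18, beside a median of 0.0050 over the 21729 genes tested, of which 50.9% were higher. For 5 of the 8 every knockout array was above every wild-type array, beside 2.31% of all genes. By limma with Benjamini-Hochberg adjustment over all genes 2 of the 8, H2-Eb1 and Cd74, passed a threshold of 0.05 as higher, beside 0.124% of all genes higher (27), 0.0782% lower (17) and 0.202% in both directions. With slide as a block, within slide 1, over the arrays with Y-linked signal and with the replicate block 0 of 8 passed. Over all genes 5, 2, 4 and 4 passed there. At an unadjusted p below 0.05 there were 7 of 8 over all arrays, beside 8.72% of all genes. In those settings, in the same order, there were 6, 4, 5 and 6 of 8, beside 1448, 1336, 851 and 1082 of 21729 genes. Slide 4 held 1 knockout array, so only its differences are given. These counts rest on the contrast by which the group was chosen, and H2-Oa was kept only through the knockout, so nothing is read from them. In whole stomach, a larger number of class II cells and more class II RNA per cell cannot be told apart.

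**Figure D2:**
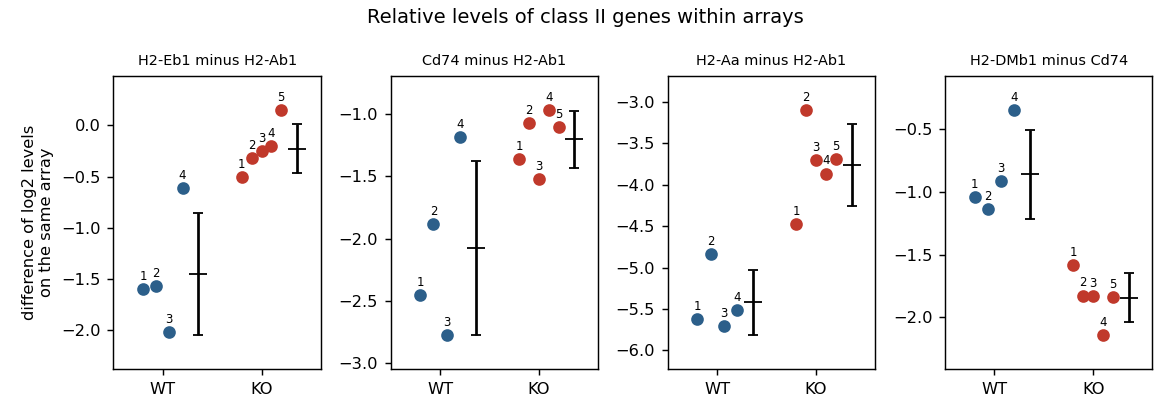
Difference of log2 levels between 2 class II genes on the same array for wild type (blue, n = 4) and knockout (red, n = 5), with mouse numbers and mean ± SD; the H2-Ab1 value is the mean of its 2 probes. Only changes between arrays can be read, since probes differ in brightness. H2-Eb1 and H2-Aa stood higher relative to H2-Ab1 on every knockout array, and H2-DMb1 lower relative to Cd74. The H2-Aa points of WT 3 and WT 4 rest on H2-Aa signal not well above background.

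Scaling between arrays drops out when 2 members are set against each other on 1 array. H2-Eb1 minus H2-Ab1, with H2-Ab1 as the mean of its probes, was −0.51, −0.32, −0.25, −0.21 and 0.15 for KO 1 to KO 5, against −1.60, −1.57, −2.02 and −0.61 for WT 1 to WT 4. The groups did not overlap, but the gap between WT 4 and KO 1 was small. H2-Aa minus H2-Ab1 ran from −4.47 to −3.09 in knockout and from −5.71 to −4.84 in wild type, again without overlap. H2-Aa was not well above background on WT 3 and WT 4, so the size of this gap is uncertain. With normexp the knockout minus wild-type differences of H2-Aa and H2-Ab1 were close to each other, at 1.27 and 1.13. For Cd74 minus H2-Ab1, WT 4 (−1.18) lay among the knockout arrays (−1.52 to −0.96), and the other wild-type arrays below them. H2-DMb1 minus Cd74 was lower on every knockout array (−2.14 to −1.59) than on every wild-type array (−1.14 to −0.34). Since the group was chosen by H2-Eb1 and Cd74, larger differences for these genes than for the others are favoured by the choice, and nothing is read from them. Cd74 minus H2-Eb1 overlapped between the genotypes, at −0.98 ± 0.26 (SD, n = 5) in knockout and −0.62 ± 0.24 (SD, n = 4) in wild type.

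**Figure D3:**
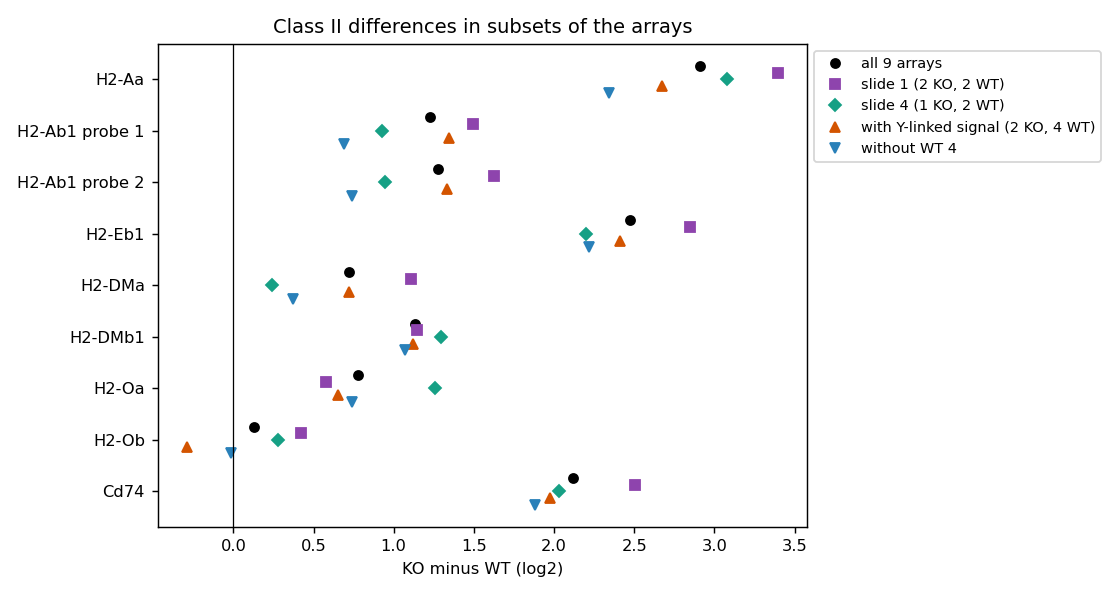
Knockout minus wild-type difference (log2) of the 9 kept class II probes over all arrays, within slide 1 and slide 4, over the arrays with Y-linked signal and without WT 4. H2-Eb1 stays between 2.20 and 2.85 and Cd74 between 1.88 and 2.50, while H2-Ab1 and H2-DMa shrink without WT 4 and H2-Ob crosses 0; the H2-Aa point of slide 1 rests on wild-type arrays without signal well above background.

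Slide and sex were not balanced between the genotypes, so the differences were also taken within them. Within slide 1 (2 knockout and 2 wild-type arrays) H2-Eb1 was higher by 2.85, Cd74 by 2.50 and H2-DMb1 by 1.14. Within slide 4 (1 knockout and 2 wild-type arrays) the same genes were higher by 2.20, 2.03 and 1.30. H2-Aa was higher by 3.08 within slide 4, and it has no usable size within slide 1, where neither wild-type array had it well above background. H2-Ab1 (A_55_P1962747) was higher by 1.49 within slide 1 and by 0.93 within slide 4, and H2-DMa by 1.11 and 0.24. KO 1 and KO 3, the knockout arrays with Y-linked signal, exceeded the wild-type mean by 2.41 for H2-Eb1, 1.97 for Cd74 and 2.67 for H2-Aa. The knockout arrays without it exceeded that mean by 2.52, 2.22 and 3.07. H2-Ob differed by −0.29 and 0.40 in these comparisons, so its sign was not the same in both.

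**Figure D4:**
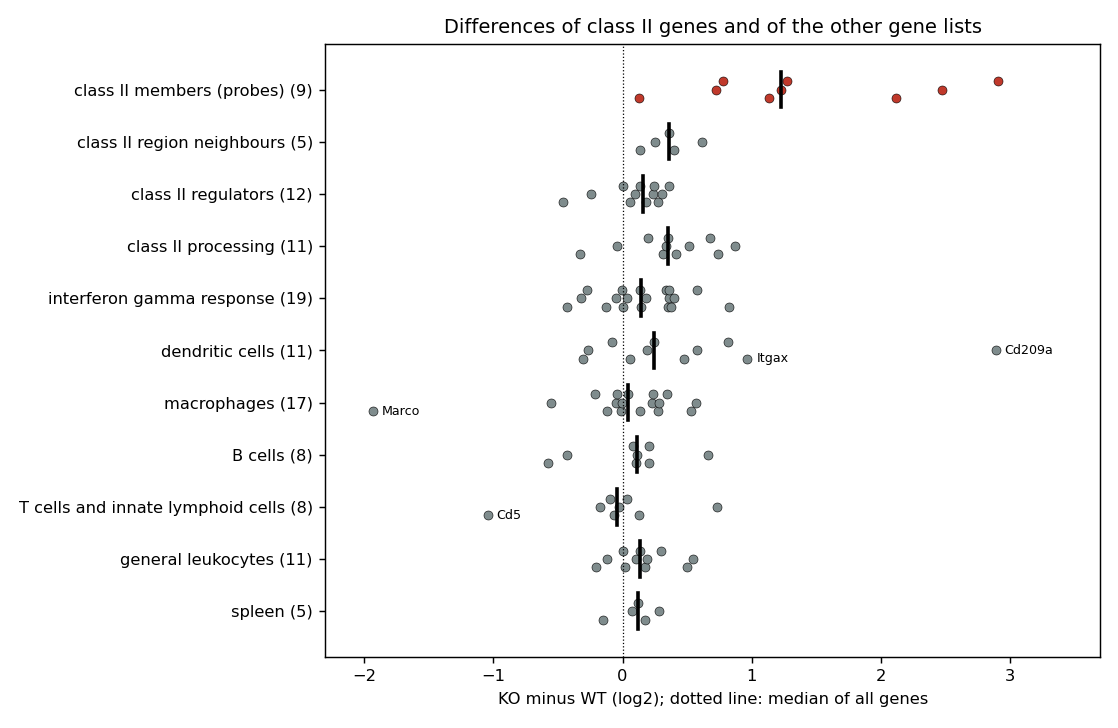
Knockout minus wild-type difference (log2) of each tested gene in the class II group (red, by probe), the genes between the class II genes on chromosome 17 and the other lists (grey), with the number of points in brackets. Black bars are medians and the dotted line is the median of all genes; only Cd209a among the grey points passed the test, and its point is a fitted value with wild type not well above background.

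The other genes of the pathway come from lists chosen with earlier results of these data known. Of 17 regulators of class II genes, 12 were tested and 0 passed by limma over all genes (0 at an unadjusted p below 0.05). Their median difference was 0.16, with 10 higher and 2 lower. Of the RFX subunits that bind the X box, Rfxap lay at 0.099 ± 0.18 (SE) and Rfxank at 0.28 ± 0.25, while Rfx5 was not well above background on any of the 9 arrays. The Y box factor genes Nfya, Nfyb and Nfyc lay at −0.46 ± 0.36, 0.14 ± 0.20 and 0.055 ± 0.13. The interferon gamma receptor gene Ifngr2 (0.24 ± 0.14, limma adjusted p = 0.694), the myeloid factor gene Irf8 (0.30 ± 0.18, 0.716), Jak1 (0.25 ± 0.16, 0.742) and Creb1 (−0.24 ± 0.16, 0.763) had the smallest p. Ifng itself was not well above background on any of the 9 arrays.

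Genes of antigen processing and co-stimulation were 9 higher and 2 lower of 11 tested, with a median of 0.36, and 0 passed by limma (3 at an unadjusted p below 0.05). Ctss, which encodes the cathepsin that trims the invariant chain, lay at 0.87 ± 0.29 (SE; limma adjusted p = 0.415). Its levels were 1.35, 1.50, 2.18, 1.85 and 2.17 on the knockout arrays and 1.01, 1.42, 1.18 and 0.14 on the wild-type arrays, so KO 1 overlapped with WT 2. The co-stimulatory receptor gene Cd40 (0.52 ± 0.18, limma adjusted p = 0.450) did not overlap between the groups, and the cathepsin genes Ctsb (0.32 ± 0.14, 0.557) and Ctsd (−0.33 ± 0.16, 0.605) differed in sign. None of these passed the test.

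Interferon gamma targets, the usual companions of induced class II, had a median of 0.14 over 19 tested genes, with 13 higher and 6 lower, and 0 passed by limma (1 at an unadjusted p below 0.05). The GTPase gene Gbp4 lay at 0.58 ± 0.21 (SE; limma adjusted p = 0.460), the chemokine gene Cxcl10 at 0.82 ± 0.44 (0.663), Gbp5 at −0.43 ± 0.25 (0.708) and the immunoproteasome gene Psmb9 at 0.40 ± 0.23 (0.712). Irf1 and Socs1, both direct targets, lay at 0.0053 ± 0.25 and −0.054 ± 0.22. Cxcl9 and Ido1 were not well above background on any array.

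Genes lying between the class II genes were read to see whether the difference belonged to the whole stretch of chromosome 17. From the probe of H2-Oa to that of H2-Eb1 (chr17:34232033-34453134, mm9) 5 other genes were tested, all of them higher, with a median of 0.36, and 0 passed by limma (1 at an unadjusted p below 0.05). The peptide transporter gene Tap2 lay at 0.62 ± 0.17 (SE; limma adjusted p = 0.298), with no overlap between the groups. Psmb9 lay at 0.40 ± 0.23, Psmb8 at 0.36 ± 0.32, the chromatin reader gene Brd2 at 0.25 ± 0.16 and Tap1 at 0.13 ± 0.35. These genes serve MHC class I presentation, apart from Brd2. The members in or at the ends of the stretch ran from 0.13 (H2-Ob, close to background) and 0.72 (H2-DMa) to 2.47 (H2-Eb1) and 2.91 (H2-Aa). All the neighbours thus lay above H2-Ob and below the other tested members of the stretch. The members were chosen by this contrast, so nothing is read from that order, and a part of the whole stretch in the difference was not tested.

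Among markers of the cells that carry class II, 1 gene passed the test. Of 18 dendritic cell genes 11 were tested, 8 of them higher, with a median of 0.24. By limma 3 had an unadjusted p below 0.05, beside 8.72% of all genes, and 1 passed, Cd209a, beside 0.202%. This C-type lectin gene lay at −3.95, −2.91, −3.18, −4.24 and −3.95 in KO 1 to KO 5, against −7.20, −6.98, −6.03 and −5.93 in WT 1 to WT 4. It was well above background on 4 of 5 knockout and 0 of 4 wild-type arrays, so it was kept only through the knockout. Its other probe stayed below that mark on all arrays. On the scale used here Cd209a was at least 1.79-fold higher, with KO 4, not well above background, in the knockout mean. The limma adjusted p of 0.0139 belongs to the fitted difference of 2.89 (log2), taken against the dim wild-type signal, and does not test that bound. With normexp the difference of Cd209a was 0.61 (log2), below that bound, and did not pass (limma adjusted p = 0.0793). The call was also lost, at fitted differences of 2.67 to 2.97, with slide as a block (limma adjusted p = 0.243), with the replicate block (0.201), over the arrays with Y-linked signal (0.302) and without KO 3 (0.0569), WT 1 (0.0677) or WT 2 (0.0694). Within slide 1 the fitted difference was 1.88 (0.794).

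Itgax, the gene of CD11c, lay at −3.11, −2.34, −2.90, −2.77 and −2.76 on the knockout arrays and at −3.46, −3.25, −4.34 and −3.92 on the wild-type arrays. Itgax was well above background on 5 of 5 knockout but 2 of 4 wild-type arrays, so the size of its difference is uncertain. The groups did not overlap, but its difference of 0.97 ± 0.24 (SE) did not pass (limma adjusted p = 0.264). Neither did that of the lectin gene Clec10a (0.81 ± 0.23, 0.337). Bst2 (0.24 ± 0.14, limma adjusted p = 0.696) and Kmo (0.57 ± 0.36, 0.742) followed. Flt3, which marks dendritic cells and their precursors, lay at −0.31 ± 0.53, on a probe well above background on 2 knockout and 2 wild-type arrays. WT 4 (−2.24) lay above all other arrays (−5.47 to −3.77), so no direction is read from Flt3. Xcr1, Clec9a, Ccr7, Itgae, Ly75 and Cd207 were not well above background on any array. The summed linear level of the list was 120 to 203 in knockout and 118 to 326 in wild type. This sum is mostly the signal of the Siglech probe (7.27 ± 0.30 and 7.35 ± 0.67) and is no measure of dendritic cell number.

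Macrophage genes had a median of 0.042 over 17 tested, 9 of them higher, and 0 passed by limma (1 at an unadjusted p below 0.05). Csf1r, the receptor gene all macrophages need, lay at 0.23 ± 0.15 (SE) and the surface receptor gene Adgre1 at 0.57 ± 0.37. Adgre1 levels were −0.20, −0.21, −0.16 and −2.02 on WT 1 to WT 4, and −0.32 to 0.20 in the knockout. The size of its difference thus rests on WT 4. On its other probe WT 4 (−3.21) was also far below the other wild-type arrays (−1.02 to −0.82). Cd14 lay at −0.22 ± 0.17, and the scavenger receptor gene Marco at −1.93 ± 0.56 (limma adjusted p = 0.350), with every knockout array below every wild-type array. The summed level of the list was 42.1 to 56.9 in knockout and 28.1 to 53.3 in wild type.

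B cell genes had a median of 0.11 over 8 tested, 6 of them higher, and 0 passed by limma (2 at an unadjusted p below 0.05). Pax5 and Igll1 were not well above background on any array, while the receptor chain genes Cd79a and Cd79b lay at 0.11 ± 0.43 (SE) and 0.21 ± 0.16. Ebf1 (0.66 ± 0.21, limma adjusted p = 0.405) did not overlap between the groups, and Fcer2a (−0.57 ± 0.25, 0.564) and Cd22 (−0.43 ± 0.33, 0.799) were lower. The summed level was 7.31 to 10.8 in knockout and 4.69 to 9.66 in wild type.

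T cell and innate lymphoid genes had a median of −0.046 over 8 tested, 3 of them higher, and 0 passed by limma (2 at an unadjusted p below 0.05). The lymphotoxin gene Ltb lay at 0.73 ± 0.17 (SE; limma adjusted p = 0.216) without overlap, Cd5 at −1.04 ± 0.44 (0.539), Gata3 at −0.17 ± 0.40, Il1rl1 at 0.12 ± 0.32 and Cd3e at −0.067 ± 0.27. General leukocyte genes had a median of 0.14 over 11 tested, 9 of them higher, and 0 passed by limma (1 at an unadjusted p below 0.05), with Ptprc, the CD45 gene, at 0.19 ± 0.24, Cd52 at 0.55 ± 0.24, Cd53 at 0.50 ± 0.53 and Arhgdib at −0.21 ± 0.15. The summed leukocyte level was 12.5 to 17.1 in knockout and 12.5 to 15.3 in wild type. Genes of the spleen, which lies beside the stomach, had a median of 0.12 over 5 tested, and 0 passed by limma (0 at an unadjusted p below 0.05 as well). Vcam1 lay at 0.28 ± 0.23, Spic at 0.17 ± 0.36, Madcam1 at 0.12 ± 0.14 and Hmox1 at −0.15 ± 0.33, while Tlx1 and Cd5l were not well above background on any array. The part of any of these cells in the class II difference was not tested.

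Of the stomach markers, 13 of 18 were higher, with a median of 0.27, and 0 passed by limma (4 at an unadjusted p below 0.05). The foregut factor gene Sox2 lay at −1.04 ± 0.18 (SE; limma adjusted p = 0.0702), the surface cell gene Gkn1 at 1.83 ± 0.36 (0.131), the smooth muscle actin gene Actg2 at −0.93 ± 0.21 (0.208) and the mucin gene Muc5ac at 1.12 ± 0.49 (0.551). Without WT 4, Gkn1 passed as higher and Sox2 and Actg2 as lower.

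For the members well above background on all arrays (H2-Ab1, H2-Eb1, H2-DMb1 and Cd74) WT 4 was the lowest wild-type array each time, while the order of the other arrays differed between the genes. Their mean, centred within each genotype, was −0.34, 0.21, 0.28, 0.20 and −0.35 for KO 1 to KO 5, against 0.14, 0.55, 0.13 and −0.82 for WT 1 to WT 4, with WT 4 farthest from 0. The 8 other genes with the profile most like it over the 9 arrays were Ptp4a3, Ubl3, Copg1, Rab25, Rab31, Fam189a2, Ankrd13a and Ensa. None of the 8 passed between the genotypes by limma (adjusted p from 0.818 to 0.995). Among 21712 genes compared over so few arrays, 245 had a likeness (Pearson correlation of the centred levels) above 0.9, so the list is a description of these arrays only.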

How the data were processed

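Stomach RNA of 9 newborn mice was measured on 1 array each. The deposited scanner files give spot intensity on a linear scale and yes or no flags of another kind (well above background, saturated, outlier); per the file headers the authors used Feature Extraction 10.5.1.1 (protocol GE1_107_Sep09; design on mm9), whereas the submitters' processing notes name version 9.1. The processed signal is background-subtracted with a spatial detrend and is not normalized between arrays, per the file headers. The authors' deposited series matrix is on a log2 scale. Its differences between arrays matched log2 of the processed signal to within 3.62e-06 over 55249 probes; the reference of its centring is unknown, and its column medians ran from −0.277 to 0.379.

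Control spots (3671) and outlier-flagged spots were dropped before spots sharing a probe were averaged. No spot was saturated (0 on each array). Levels are log2 processed signal minus log2 of the array's 75th percentile. Names were updated through RefSeq accessions (GRCm38.p6, 26762 probes matched, 2878 renamed, 12 of the 13 member probes matched). The 30203 probes that 4 or more of 9 arrays had well above background were fitted with limma 3.58.1 in R 4.3.3 (lmFit, eBayes, two-sided, no covariate). For calls, each of 21729 genes took its brightest probe by mean level, with Benjamini-Hochberg adjustment over all genes. "At least N-fold" sets the bright group's mean against, for each dim array, its lowest signal well above background or, if higher, the signal of the probe itself. The steps were tested on simulated data. Nothing says whether littermates were shared. The p-values set group differences against the spread between these mice, taken as independent, which littermates would not be. The number of arrays limits the precision.

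The members, the lists and the patterns were chosen with earlier results of these data known. Named are all members, the genes of each list past the threshold with up to 4 others of smallest p, up to 6 genes of the class II region, 8 genes by likeness, and the listed defining markers; Rfxap, Rfxank, Nfya, Nfyb, Nfyc, Irf1, Socs1 and Siglech, and the genes named as not well above background, were added after their values were seen. Some items are not reported here.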

Additional observations from a re-analysis of the deposited data

Results flagged for a closer look

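In the members' values, 32 groups of arrays (each kept probe and each within-array difference in each genotype) were examined for an array far from the rest, where chance gives about 1 in 20, and 4 were found. For H2-Ab1, WT 4 lay far below the other wild-type arrays on both probes, at −0.22 (nearest 1.79) on A_55_P1962747 and at −0.43 (nearest 1.60) on A_55_P2146560. For H2-DMb1, WT 2 at −1.18 lay above the other wild-type arrays (nearest −1.76). For H2-Oa, WT 3 at −4.31 lay above them (nearest −4.82), with no wild-type array well above background. The cause was not tested.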

How the results depend on the processing

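H2-Eb1, Cd74, H2-Aa, H2-Ab1, H2-DMb1, H2-DMa and H2-Oa stayed higher in the knockout under every alternative that measured them (20 or 21 settings); H2-Eb1 ran from 2.20 to 2.85 and Cd74 from 1.86 to 2.50. H2-Ob kept its sign in 16 of 20. The number of members higher was 8; it was 7 over arrays with Y-linked signal and without KO 4, WT 1 or WT 4, where H2-Ob turned, and 4 of 4 when a probe had to be well above background on all arrays. The 2 calls among members became 1 without a filter on dim probes. They became 0 with slide as a block, within slide 1, over arrays with Y-linked signal and with the replicate block. In this order, 6, 4, 5 and 6 members had an unadjusted p below 0.05 (limma), beside 1448, 1336, 851 and 1082 of 21729 genes. Leaving out single arrays gave 1 to 3 called members, 11 to 161 called genes and 0 to 4 called list genes; 1 member, H2-Eb1, was called without KO 2, KO 3, KO 4, WT 1 or WT 3, and 161 genes without WT 4. The 44 calls over all genes became 22 without the filter, 5 with slide as a block, 2 within slide 1, 4 over arrays with Y-linked signal and 4 with the replicate block. The 1 called list gene became 0 with slide as a block, within slide 1, over arrays with Y-linked signal and with the replicate block. In this order, 17, 8, 7 and 12 of 120 list genes had an unadjusted p below 0.05 (limma), beside the counts over all genes given above. With all arrays well above background it was 0 because that filter left Cd209a out. There 13 of 106 list genes had an unadjusted p below 0.05 (limma), beside 1671 of 18528 genes. With normexp the called list gene was Sox2 in place of Cd209a. The labels number the mice in both genotypes, and whether the numbers pair the mice is not known. Same-numbered arrays did not deviate together (correlations −0.305, 0.122, 0.153 and −0.482), which cannot settle it, since paired mice need not deviate together. The cause of the other losses of calls was not tested. Signal over background limits H2-Aa, H2-Oa, H2-Ob, H2-DMb2 and Ciita.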
